A study of Caenorhabditis elegans with 21 samples.

Results

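The ugt genes of C. elegans encode UDP-glucuronosyltransferases, the enzymes that join a sugar to small lipophilic molecules. They were taken as every gene in the expression table named ugt followed by a number, which gave 65 genes, ugt-1 to ugt-65, of 22840 genes in all. Levels are in TPM, a transcript abundance that is scaled for gene length and for the library total. Averaged over the libraries, 46 of the 65 reached 1 TPM, and they were tested among the 12843 genes that did so. The other 19 lay below it and are described by their levels.

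The mRNA of whole worms was sequenced in 9 genotypes and 21 libraries. The pmk-1 alleles compared were the null pmk-1(km25) and pmk-1(miy7), which carries the change D327E and resists caspase cleavage, with 3 libraries each. Each was also combined with either of the daf-16 alleles mgDf50, a deletion, and m26, a splice site mutation, so that daf-16(mgDf50);pmk-1(km25), daf-16(m26);pmk-1(km25), daf-16(mgDf50);pmk-1(miy7), daf-16(m26);pmk-1(miy7) and both daf-16 single mutants had 2 libraries each, against 3 of wild type. All animals were raised for 48 h on OP50 bacteria at 20 °C after 24 h in M9. The labels call them late L4, the study's methods young adults and its figure legend day 1 young adults. The adult cuticle collagen col-19 was at 1694 to 2669 TPM in every library.

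UDP-glucuronosyltransferases act in the second phase of detoxification. They transfer the sugar of a UDP-sugar to drugs, plant and bacterial compounds or the animal's own metabolites, which become water-soluble and leave the cell through export pumps. In C. elegans the family is large, many members lie side by side in tandem arrays, and the intestine is a major site of detoxification. PMK-1 is a p38 MAP kinase of the innate immune response that also acts in the intestine, CED-3 is the caspase that cleaves it, and DAF-16 is the FOXO transcription factor of the insulin pathway. The comparisons therefore ask which members of this family depended on PMK-1, on its cleavage, or on DAF-16. For most members no function is stated here, because none is known with enough certainty.

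In the WBcel235 annotation, used for names and gene order alone, 41 of the 65 genes are on chromosome V, 12 on IV, 5 on I, 4 on X, 2 on III and 1 on II. Counting genes with at most 1 other coding gene between them as neighbours, 36 members lie in 12 runs, the largest of which holds 7 genes (ugt-12, ugt-11, ugt-9, ugt-10, ugt-8, ugt-14 and ugt-13). Neighbours differed widely in level. In the run of 7, ugt-12 averaged 25.0 TPM and ugt-10 averaged 0.240 TPM over all libraries. In the run of 4 on chromosome I, ugt-26 averaged 21.3 TPM and ugt-27 averaged 0.0880 TPM. Near-identical stretches of neighbouring copies can split reads, so the levels within a run are uncertain to that extent. In addition 12 members overlap another coding gene. For ugt-22, ugt-47, ugt-64 and ugt-65 that gene is on the opposite strand. Only ugt-37, ugt-40 and ugt-55 overlap a gene on the same strand, and ugt-37 and ugt-40 overlap each other.

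A single gene stood above the rest of the family. ugt-22, whose knockdown is known to make worms more sensitive to the drug albendazole, averaged 149 TPM over the 21 libraries and ranged from 97.2 to 197 TPM. It was followed by ugt-47 (mean 58.6 TPM), ugt-62 (58.1 TPM), ugt-64 (57.4 TPM) and ugt-58 (44.7 TPM). The ranges of these 4 over the libraries overlapped, so their order is not fixed. Together the 5 genes made up 41.7 to 51.9% of the summed ugt level of a library. Counting those 4, 20 members averaged between 10 and 100 TPM, 25 averaged between 1 and 10 TPM, 13 between 0.1 and 1 TPM and 6 below 0.1 TPM. Between 43 and 47 members reached 1 TPM in any 1 library. ugt-35 was listed at 0 in 17 of the libraries and ugt-38 in 15.

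**Figure D1:**
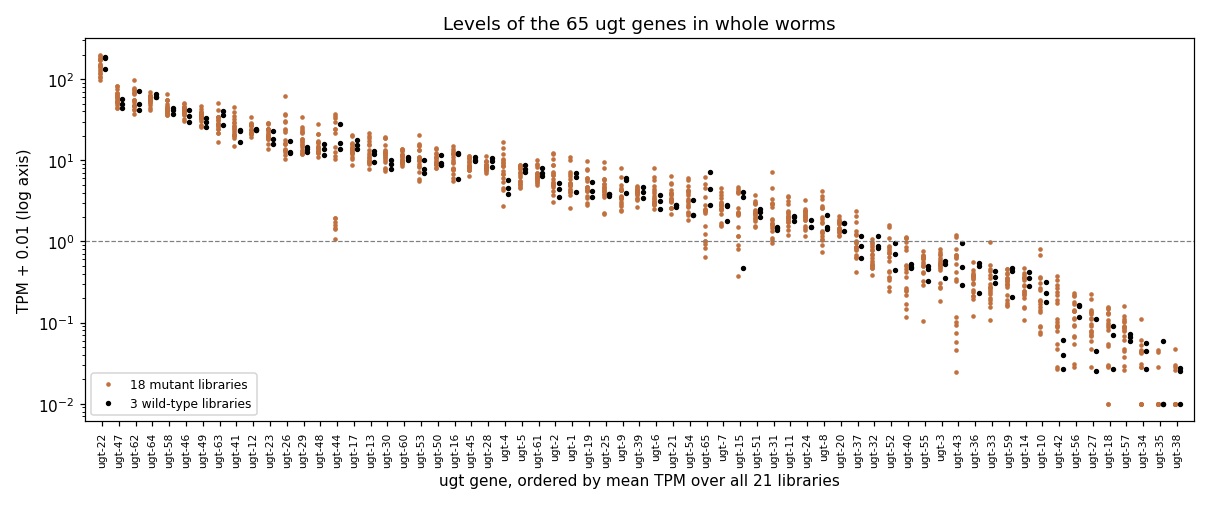
Level of each of the 65 ugt genes in TPM plus 0.01 on a log axis, with the genes ordered by their mean over all 21 libraries, each orange dot is 1 of 18 mutant libraries and each black dot 1 of 3 wild-type libraries, and the dashed line marks 1 TPM. ugt-22 lies highest, and ugt-44 is the gene among the more abundant ones whose mutant libraries split into a low and a high group.

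The summed level of the 65 genes in each genotype is given here as a description. It was 784 ± 131 TPM in pmk-1(km25) and 748 ± 20.8 TPM in pmk-1(miy7), against 778 ± 29.2 TPM in wild type (SD, n = 3 each). With daf-16(mgDf50) it was 784 ± 104 TPM in the km25 double mutant, 937 ± 67.2 TPM in the miy7 double mutant and 926 ± 162 TPM in the single mutant (SD, n = 2 each). With daf-16(m26) it was 756 ± 7.86, 749 ± 98.1 and 806 ± 103 TPM in the same order (SD, n = 2 each). Both libraries of daf-16(mgDf50);pmk-1(miy7), at 889 and 984 TPM, and both of daf-16(mgDf50), at 811 and 1040 TPM, lay above the 3 wild-type libraries, at 745 to 802 TPM.

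The libraries themselves differed in make-up, and the ugt level moved with it. The summed level of 8 intestine markers ranged from 967 to 1942 TPM, that of 10 oocyte and eggshell genes from 2842 to 5394 TPM, and that of 31 msp sperm genes from 1453 to 6708 TPM. The 3 libraries with the highest intestine sums (1678 to 1942 TPM), which were replicate 1 of daf-16(mgDf50), of pmk-1(km25) and of daf-16(mgDf50);pmk-1(miy7), also had the highest ugt sums, 935 to 1040 TPM. The 5 libraries with the lowest intestine sums (967 to 1094 TPM) had ugt sums of 697 to 762 TPM. In pmk-1(km25), replicate 1 was the highest of the 3 libraries for 34 of the 46 tested members, against 41.5% of all tested genes. The part of this make-up in the differences below was not tested beyond the fits that include the marker level. In whole worms a smaller share of intestine and less RNA per intestinal cell cannot be told apart.

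**Figure D2:**
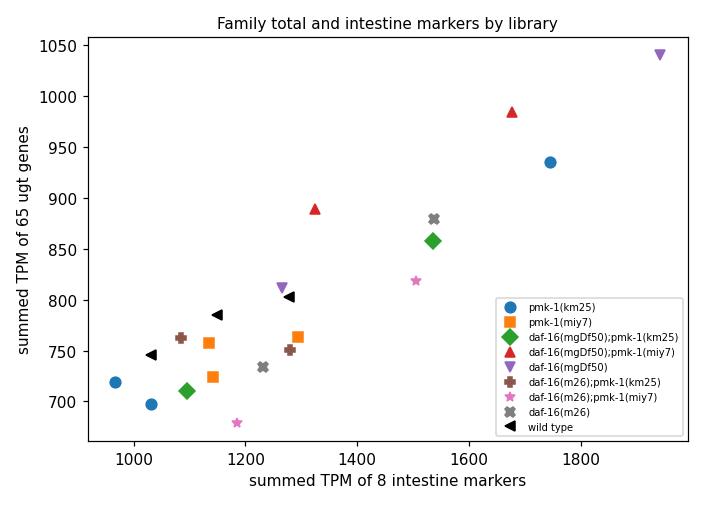
Summed TPM of the 65 ugt genes against the summed TPM of 8 intestine markers, with 1 symbol per library and genotypes marked by shape and colour. The 3 libraries furthest to the right had ugt sums of 935 to 1040 TPM, and the 5 furthest to the left 697 to 762 TPM.

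In the pmk-1 null 1 member was called, ugt-44, which was lower. It was at 1.44, 1.40 and 1.70 TPM in the 3 pmk-1(km25) libraries, against 14.0, 16.4 and 27.9 TPM in wild type. The groups lay far apart, and the means, 1.51 ± 0.166 TPM in pmk-1(km25) and 19.4 ± 7.44 TPM in wild type (SD, n = 3 each), differed 12.8-fold. On the log2(TPM + 1) scale, which understates changes of low genes, ugt-44 fell by 2.97 (SE 0.23, limma adjusted p = 7.12e-06). It was the only 1 of the 46 tested members called in this comparison at an adjusted p below 0.1, where 0.631% of all tested genes were called. Leaving out each library in turn gave differences of -3.16 to -2.69 and limma adjusted p-values of 1.75e-05 to 6.91e-05.

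The low level of ugt-44 recurred in both daf-16 backgrounds. It was at 1.92 and 1.60 TPM in daf-16(mgDf50);pmk-1(km25), against 11.3 and 10.4 TPM in daf-16(mgDf50), a log2 difference of -2.10 (SE 0.28, limma adjusted p = 0.00181). It was at 1.07 and 1.95 TPM in daf-16(m26);pmk-1(km25), against 12.8 and 14.4 TPM in daf-16(m26), a log2 difference of -2.56 (SE 0.28, limma adjusted p = 0.00056). All 7 libraries with the km25 allele lay between 1.07 and 1.95 TPM, and the 14 others between 10.4 and 37.6 TPM. ugt-44 was again the only 1 of 46 members called in each comparison, beside 0.405% of all genes in the mgDf50 background and 0.358% with m26. Against wild type, which the first comparison also used, ugt-44 differed by -2.83 in the mgDf50 double mutant (limma adjusted p = 2.94e-05, 1 member called against 0.872% of all genes) and by -2.99 in the m26 double mutant (limma adjusted p = 1.74e-05, 1 member called against 0.958%). With only the 2 mgDf50 genotypes in the fit, the adjusted p of their comparison was 0.238.

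**Figure D3:**
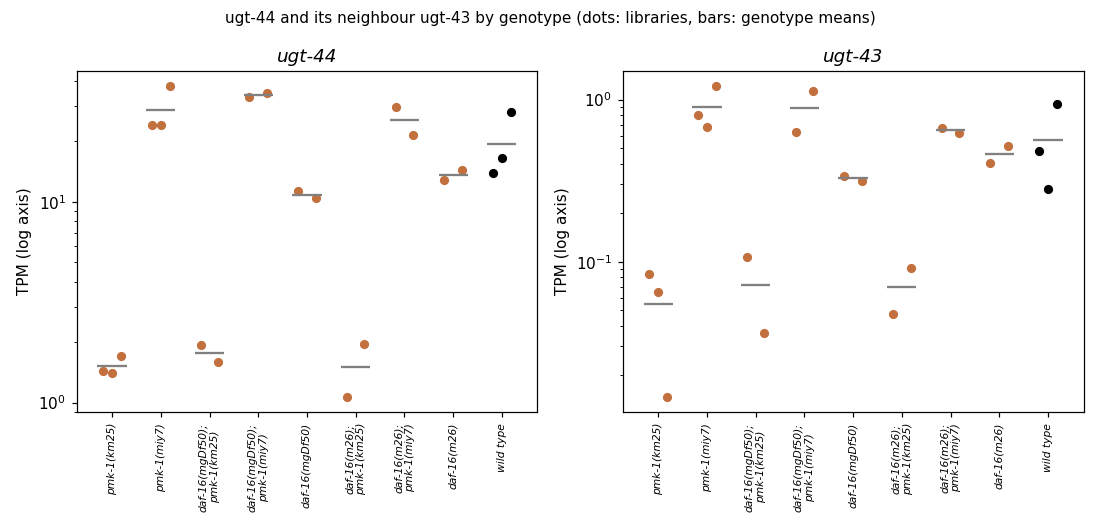
TPM of ugt-44 (left) and of its neighbour ugt-43 (right) on log axes in each genotype, where dots are libraries and grey bars genotype means, with wild type at the right end in black. The 7 km25 libraries of ugt-44 sit between 1.07 and 1.95 TPM and the others between 10.4 and 37.6 TPM. For ugt-43 the same 7 libraries sit between 0.0147 and 0.107 TPM and the others between 0.280 and 1.21 TPM.

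ugt-44 was not low with the cleavage-resistant allele. It was at 24.1, 24.0 and 37.6 TPM in pmk-1(miy7), against 14.0, 16.4 and 27.9 TPM in wild type, and the groups overlapped. The means of 28.5 ± 7.82 and 19.4 ± 7.44 TPM (SD, n = 3 each) differed by 0.56 on the log2 scale (SE 0.23, limma adjusted p = 1). None of the 46 members was called between pmk-1(miy7) and wild type by limma, where 0.0779% of all genes were, and 1 member, ugt-44, had an unadjusted p below 0.05, beside 1.03% of all genes. In the mgDf50 background ugt-44 was at 33.2 and 34.7 TPM in the double mutant with pmk-1(miy7), against 11.3 and 10.4 TPM in daf-16(mgDf50). This rise of 1.56 (SE 0.28, limma adjusted p = 0.0431) made it the 1 member called there, against 0.202% of all genes. The call was lost when any 1 of the 4 libraries was left out (adjusted p 0.249 to 0.489, differences of 1.51 to 1.61) and when only these genotypes were fitted (adjusted p = 0.391). Against wild type, ugt-44 in daf-16(mgDf50);pmk-1(miy7) was higher by 0.83 and lay above all 3 wild-type libraries, but was not called. It was called there without wild type replicate 3 (limma adjusted p = 0.0808). Over 8 other settings its limma adjusted p ran from 0.0198 to 0.916. In the m26 background ugt-44 was at 29.7 and 21.4 TPM in the double mutant with pmk-1(miy7), against 12.8 and 14.4 TPM in daf-16(m26). This difference was 0.85 (SE 0.28, limma adjusted p = 1). No member was called there by limma, beside 0.0467% of all genes, and 2 had an unadjusted p below 0.05, beside 1.11% of all genes.

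Set directly against each other, the pmk-1 alleles differed most in ugt-44, which was 18.9-fold higher in the mean of pmk-1(miy7) than in that of pmk-1(km25). The log2 difference was 3.53 (SE 0.23, limma adjusted p = 8.84e-07), and ugt-44 was the 1 member called, against 1.08% of all genes. Whether either pmk-1 allele acted differently on the family in daf-16 mutants than in wild-type animals was tested by 4 interaction terms. No member was called by limma in any of them, beside 0.0779% of all genes for km25 with mgDf50, 0.109% for miy7 with mgDf50, 0.0156% for km25 with m26 and 0.0234% for miy7 with m26. At an unadjusted p below 0.05 there were 1, 2, 0 and 0 members, beside 1.27, 1.12, 1.32 and 0.693% of all genes. For ugt-44 the effect of km25 was 0.86 smaller in size with mgDf50 (SE 0.37, limma adjusted p = 0.954) and that of miy7 1.00 larger (SE 0.37, limma adjusted p = 1). The 3 genotypes with little ugt-44 carry the same pmk-1 allele, and pmk-1 is on chromosome IV like ugt-44, so loss of PMK-1 and other differences linked to that allele cannot be told apart.

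ugt-43 lies beside ugt-44 on chromosome IV and was too low for the main test, with a mean of 0.451 TPM. It was singled out after its values were seen. It was at 0.0843, 0.0649 and 0.0147 TPM in pmk-1(km25) and 0.807, 0.678 and 1.21 TPM in pmk-1(miy7), against 0.481, 0.280 and 0.937 TPM in wild type. In the mgDf50 background it was at 0.107 and 0.0362 TPM with pmk-1(km25) and 0.629 and 1.14 TPM with pmk-1(miy7), against 0.339 and 0.317 TPM in daf-16(mgDf50). In the m26 background it was at 0.0477 and 0.0910 TPM with pmk-1(km25) and 0.669 and 0.621 TPM with pmk-1(miy7), against 0.408 and 0.520 TPM in daf-16(m26). Every km25 library was thus below every other library, as for ugt-44.

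Whether ugt-43 passed the test depended on the scale. Fitted without the limit on low genes it differed by -0.55 between pmk-1(km25) and wild type (limma adjusted p = 0.254) and by 0.84 between pmk-1(miy7) and pmk-1(km25) (limma adjusted p = 0.0104). With a pseudocount of 0.1 TPM as well, these differences were -2.01 (limma adjusted p = 0.0222) and 2.68 (limma adjusted p = 0.00106). Reads shared between the 2 neighbours could not be examined in TPM values. The coding genes on either side of the pair were low in all genotypes: mec-3, a homeobox gene of touch neurons, was at 0.392 to 0.896 TPM and F01D4.9 at 0.0438 to 0.304 TPM over the 21 libraries.

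Apart from ugt-44 no tested member was called in the pmk-1 single mutants. In pmk-1(km25) the log2 differences of the other 45 tested members from wild type ran from -0.86 (ugt-65) to 0.52 (ugt-21). Their smallest limma adjusted p was 0.746. An unadjusted limma p below 0.05 was found for 4 of the 46 members, 1 higher and 3 lower, beside 4.65% of all genes. The libraries did not overlap those of wild type for 5 members, ugt-44 included, beside 6.09% of all genes. Of the 46, 28 were higher and 18 lower, with a median of 0.07, beside 42.7% of all tested genes higher and a median of -0.05. Without replicate 1 of pmk-1(km25), the library rich in intestine markers, 13 were higher. ugt-65, the second largest difference, was at 0.809, 5.07 and 1.56 TPM in pmk-1(km25), against 4.42, 7.22 and 2.77 TPM in wild type, and these ranges overlapped. In pmk-1(miy7) the members other than ugt-44 differed by -0.40 (ugt-15) to 0.20 (ugt-4). Of the 46, 14 were higher and 32 lower, and 40.1% of all genes were higher. Without replicate 3 of wild type 24 of the 46 were higher. ugt-15 was at 1.17, 3.91 and 0.367 TPM in pmk-1(miy7), against 3.51, 4.08 and 0.457 TPM in wild type, so that replicate 3 was the lowest in both.

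The 5 most abundant members did not pass the test in either pmk-1 single mutant. ugt-22 was at 107, 192 and 119 TPM in pmk-1(km25) and 149, 180 and 117 TPM in pmk-1(miy7), against 189, 182 and 133 TPM in wild type. Its log2 differences were -0.29 and -0.18 (SE 0.22, limma adjusted p = 0.746 and 1). For ugt-47, ugt-62, ugt-64 and ugt-58 the differences lay between -0.13 and 0.25 in the 2 mutants.

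**Figure D4:**
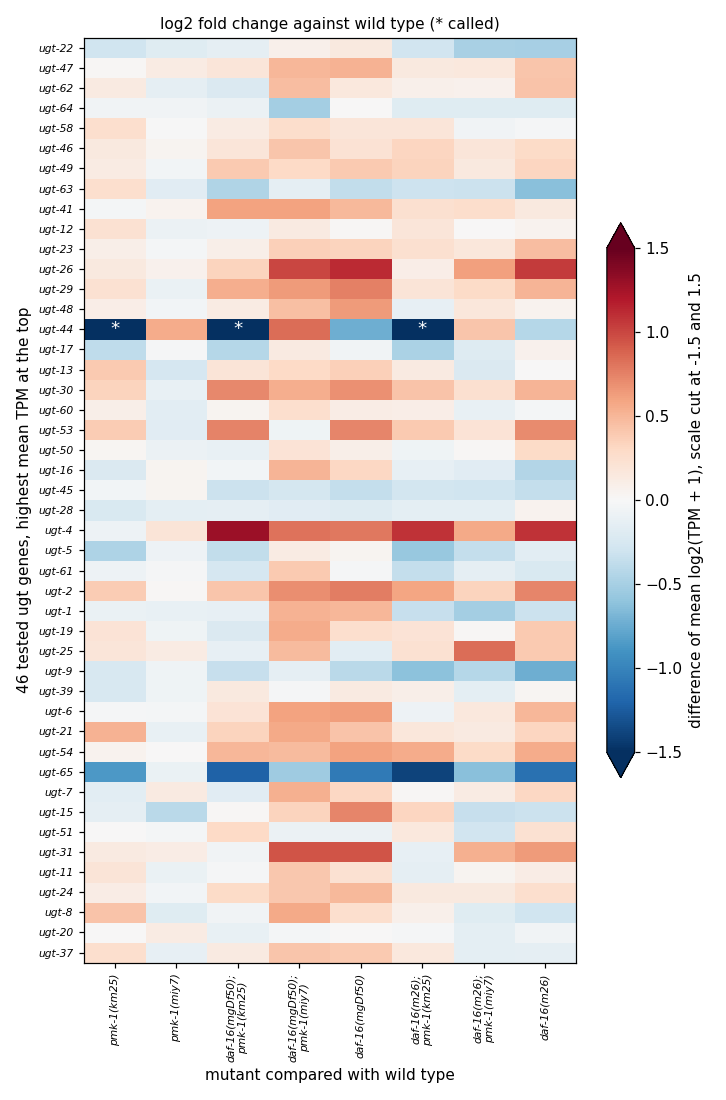
Log2 difference from wild type of the 46 tested ugt genes (from the highest mean TPM at the top) in the 8 mutant genotypes. Red is higher and blue lower than in wild type, the colour scale ends at -1.5 and 1.5, and white stars mark calls at an adjusted p below 0.1. The 3 stars are all ugt-44 in genotypes with km25, and the daf-16(mgDf50) and daf-16(mgDf50);pmk-1(miy7) columns are red for 36 of the 46 genes each.

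In daf-16(mgDf50) 36 of the 46 tested members were above wild type, with a median difference of 0.25, beside 48.9% of all genes and a median of -0.01. None was called by limma, against 0.366% of all genes, and 13 had an unadjusted p below 0.05, 11 of them higher and 2 lower, beside 10.2% of all genes. Once the fit held a replicate block 17 were called, beside 34.7% of all genes. With 2 libraries, no single pair of genotypes can show that the numbers pair. With the msp level in the fit 7 were called, beside 9.46% of all genes, and 3 without replicate 2 of daf-16(mgDf50), beside 1.69%. The 2 groups did not overlap for 15 members, beside 21.7% of all genes. In daf-16(mgDf50);pmk-1(miy7) 36 were higher again, beside 51.1% of all genes, with a median of 0.40 beside 0.02 for all genes. None was called by limma (0.257% of all genes) without the block and 20 with it (52.2%), and 10 had an unadjusted p below 0.05, beside 9.16%. The groups did not overlap for 29 of the 46, beside 38.1% of all genes. Of the 46, 27 lay wholly above the wild-type libraries, beside 23.5% of all genes. In the third genotype with this allele, daf-16(mgDf50);pmk-1(km25), 23 were higher and 23 lower, with a median of 0.00, beside 45.4% of all genes higher. There ugt-44 alone was called without the block, and 10 members with it (30.3% of all genes). Its libraries did not overlap those of wild type for 13 members, beside 30.2% of all genes.

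These counts moved with the intestine markers. All 8 intestine markers were tested, and 7 of them were higher in daf-16(mgDf50), with a median of 0.36, and 7 in daf-16(mgDf50);pmk-1(miy7), with a median of 0.34, and none was called. With the mean level of these markers in the fit, the number of ugt genes above wild type was 21 in daf-16(mgDf50) and 30 in daf-16(mgDf50);pmk-1(miy7). Without replicate 1 of daf-16(mgDf50) the first count was 26. Against daf-16(mgDf50), 10 of the 46 were higher and 36 lower in daf-16(mgDf50);pmk-1(km25), with a median of -0.20. Of all tested genes 42.7% were higher in that comparison, with a median of -0.02. The number of members higher was 25 without replicate 1 of daf-16(mgDf50), 5 and 19 without replicate 1 and replicate 2 of the double mutant, and 20 with the intestine marker level in the fit. Against daf-16(m26), 18 were higher and 28 lower in daf-16(m26);pmk-1(km25), with a median of -0.09. Of all tested genes 61.8% were higher there, with a median of 0.04. The groups did not overlap for 23 members there, beside 24.5% of all genes, with 16 wholly lower, beside 12%. In daf-16(mgDf50);pmk-1(km25) against daf-16(mgDf50) they did not for 13 members, beside 14.7%, with 12 wholly lower, beside 9.69%. Each of these groups has 2 libraries.

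ugt-26 had the largest difference in daf-16(mgDf50), and 1 library set it. It was at 61.2 and 15.7 TPM in daf-16(mgDf50), against 12.6, 12.2 and 17.2 TPM in wild type. The log2 difference of 1.12 (SE 0.51, limma adjusted p = 0.488) was 0.17 without the library at 61.2 TPM and 2.07 without the other, where it was called (limma adjusted p = 0.0947). Over all alternatives its adjusted p ran from 0.0573, with the replicate block, to 1. ugt-65 was at 1.01 and 2.47 TPM in daf-16(mgDf50), against 4.42, 7.22 and 2.77 TPM in wild type, a difference of -1.06 (SE 0.50, limma adjusted p = 0.49). It lay below wild type in all 6 daf-16 genotypes, by -1.39 to -0.53, and was called in none of these comparisons. Its call depended on the fit. With the replicate block it was called in 5 of the 6, all but daf-16(m26);pmk-1(miy7) (limma adjusted p of 0.0112 to 0.0615). It was also called with the msp level in daf-16(mgDf50) (limma adjusted p = 0.0386) and with the intestine marker level in both km25 double mutants (0.096 with mgDf50 and 0.0108 with m26). In daf-16(mgDf50);pmk-1(miy7) the msp and intestine marker levels turned its sign, to 0.13 and 0.28.

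With m26, the other daf-16 allele, 29 of the 46 members were higher and 17 lower in daf-16(m26) than in wild type, beside 45.6% of all genes higher, with a median of 0.09 beside -0.04 for all genes. None was called by limma (0.195% of all genes) without the replicate block and 10 with it (23.2%), and 6 members had an unadjusted p below 0.05, beside 7.23%. The groups did not overlap for 21 members, beside 36.5% of all genes. With pmk-1(km25) added, 27 were higher than in wild type (14 with the msp level in the fit), beside 44.2% of all genes, with a median of 0.09. The double mutant with pmk-1(km25) did not overlap wild type for 19 members, beside 25.8% of all genes. The one with pmk-1(miy7) did not for 10 members, beside 25.7%. The 2 daf-16 alleles were not tested against each other. With pmk-1(miy7) added, 25 were higher than in wild type (14 with the intestine marker level in the fit, 10 with the msp level and 16 without replicate 1), beside 41.9% of all genes, none was called by limma (0.21% of all genes), and 1 member had an unadjusted p below 0.05, beside 4.16%. The largest differences in daf-16(m26) were those of ugt-65, at 0.908 and 2.38 TPM, against 4.42, 7.22 and 2.77 TPM in wild type (-1.12, SE 0.50, limma adjusted p = 0.604), and ugt-4. ugt-4 was at 14.1 and 8.49 TPM in daf-16(m26), against 5.73, 3.81 and 4.57 TPM in wild type, a difference of 1.08 (SE 0.31, limma adjusted p = 0.382).

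Of the members not called, ugt-4 had the smallest adjusted p of any comparison. It was at 16.8 and 9.58 TPM in daf-16(mgDf50);pmk-1(km25), 9.35 and 8.58 TPM with pmk-1(miy7) in place of km25 and 10.4 and 7.47 TPM in daf-16(mgDf50). With m26 it was at 10.1 and 11.9 TPM in the km25 double mutant and 6.13 and 8.85 TPM in the miy7 double mutant. Every one of these values lay above the 3 wild-type libraries, at 3.81 to 5.73 TPM. With daf-16 intact, replicate 1 of pmk-1(km25), at 6.81 TPM, and of pmk-1(miy7), at 6.73 TPM, also lay above them. Both exceeded the lowest daf-16 library, at 6.13 TPM. The share of all genes with every daf-16 library above wild type was not counted. The difference of ugt-4 from wild type was largest in daf-16(mgDf50);pmk-1(km25), at 1.28 (SE 0.31, limma adjusted p = 0.107). There it was called with the replicate block (limma adjusted p = 0.0339) and with the intestine marker level in the fit (0.0295), in 2 of 13 alternatives, over which the adjusted p reached 1. With the block it was also called in 4 of the other 5 daf-16 genotypes (limma adjusted p of 0.0583 to 0.0961), all but daf-16(m26);pmk-1(miy7). In all, 13 of the 46 tested members, 28.3%, were above wild type in each of the 6 daf-16 genotypes, beside 27.9% of all tested genes. In each of the 6, 4 members, 8.7%, were below it, beside 38.1% of all tested genes, and 29 were mixed. These comparisons share the wild-type libraries.

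**Figure D5:**
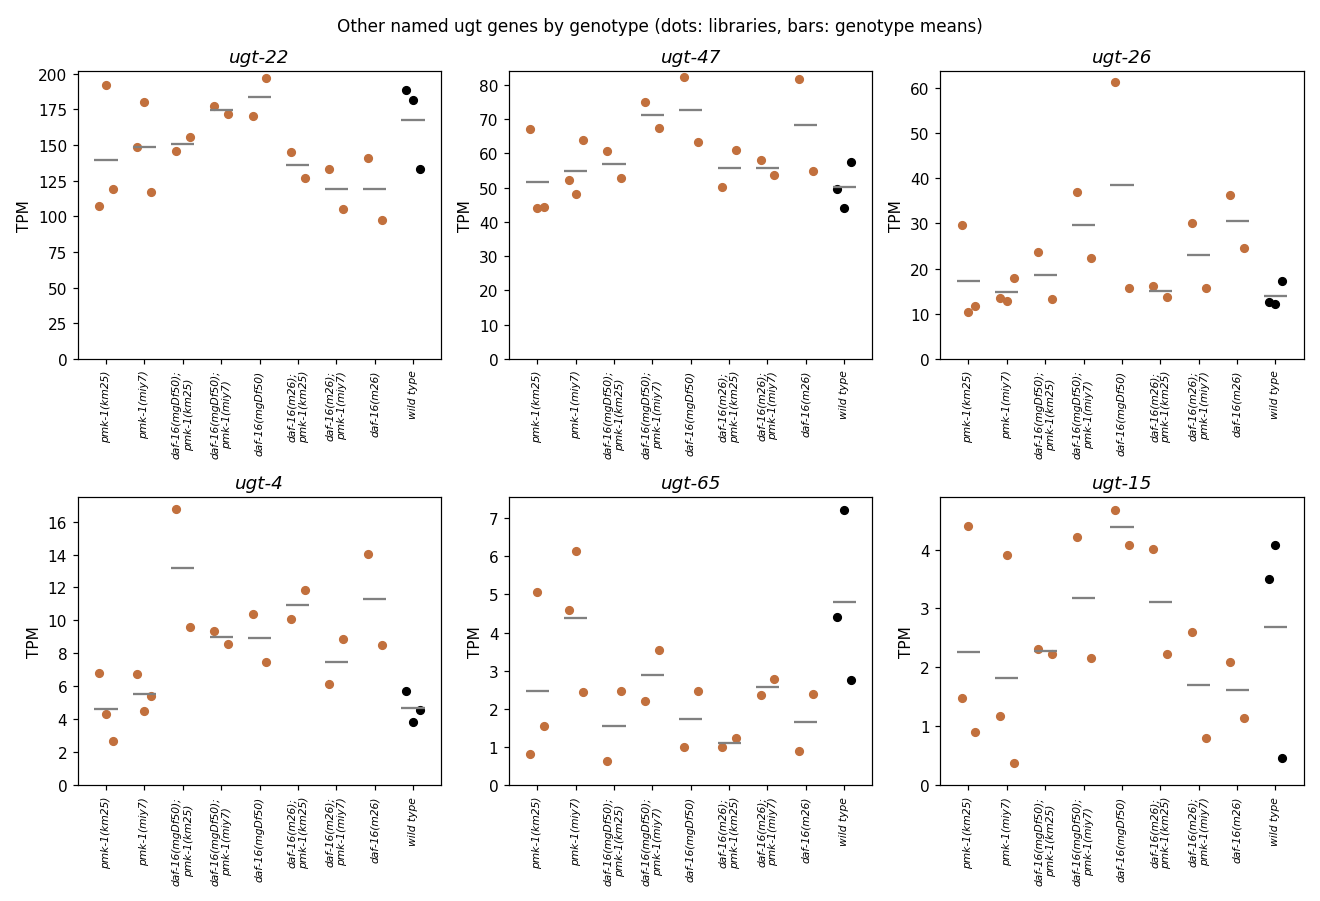
TPM of 6 ugt genes in each genotype, with dots for libraries, grey bars for genotype means and wild type at the right end of each panel in black. In ugt-26 a single daf-16(mgDf50) library is at 61.2 TPM. In ugt-4 every library with a daf-16 allele lies above the wild-type libraries, as does 1 library of each pmk-1 single mutant, at 6.81 and 6.73 TPM.

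Other genes of the same route did not pass the test. The UDP-sugar list held 10 genes that make, carry or use UDP-sugars, such as sqv-4, the UDP-glucose dehydrogenase that makes UDP-glucuronate. In pmk-1(km25) the means of all 10 were below wild type, by a median of -0.22, as were those of the 10 oocyte and eggshell genes, by a median of -0.28. Of all tested genes 42.7% were higher there. The libraries overlapped. UDP-sugar sums were 681 to 1132 TPM in pmk-1(km25) and 906 to 1218 TPM in wild type, and oocyte sums 2842 to 5394 and 4011 to 5085 TPM. In daf-16(mgDf50) 9 of the 10 UDP-sugar genes were below wild type, beside 48.9% of all genes higher. Of the 8 mrp export pumps 4 were higher and 4 lower in pmk-1(km25), as in daf-16(mgDf50). Among the 10 tested regulators of detoxification, such as skn-1 and pqm-1, 3 were higher in pmk-1(km25) and 5 in daf-16(mgDf50). No gene of these 3 lists was called in any comparison of the fit of all 9 genotypes. Of the targeted genes, daf-16 was at 6.12 to 7.78 TPM in the 6 mgDf50 libraries and 55.0 to 61.8 TPM in the m26 libraries. It was at 41.5 to 47.4 TPM in those with neither daf-16 allele. The mRNA of pmk-1 was at 10.7 to 13.9 TPM in the km25 libraries and 12.7 to 16.5 TPM in the others.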

How the data were processed

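Expression of the ugt genes was taken from TPM values that the authors deposited for 22840 genes in 21 libraries of whole worms. Per the labels and the methods, poly-A RNA was made into stranded libraries and read as single ends, and the authors used FastQC 0.11.2, STAR 2.5.3a on the ce10 build, Picard 2.10 to remove duplicates, and featureCounts. The 8 edgeR tables of the authors' own comparisons were not used. Depth is unknown from TPM, so no counting interval is given. From the values log2(TPM + 1) was computed, and 12843 genes that averaged 1 TPM or more were fitted together over the 9 genotypes with limma 3.58.1 (R 4.3.3; trend and robust estimation). P-values were adjusted by Benjamini-Hochberg over all tested genes, and a gene was called below 0.1. A count model was not run, because TPM are not counts. The labels call the libraries biological replicates. Genes were named if called in any comparison, if among the 5 highest, or if among the 2 largest differences of a single mutant. Other members, such as ugt-43, ugt-42, ugt-5, ugt-17 and those named as the ends of a range, were picked out later, from their values. The members and lists were chosen with earlier results of these data known. The main fit held genotype alone and did not pair libraries. Deviations from the genotype means correlated at 0.196, 0.856 and 0.424 between the same-numbered pmk-1(km25) and wild-type libraries. The replicate numbers entered an alternative fit only, as a block. Both libraries of daf-16(mgDf50);pmk-1(km25) are titled replicate 1, so their numbers were taken from the library names in brackets. The labels give the same strain for both double mutants with pmk-1(miy7), and their groups were taken from the genotype label. The main fit was also run on simulated data whose noise was independent between libraries. Such data lack the shared deviations above, so they cannot show how the fit behaves with them. Python 3.11.15, pandas 2.3.3 and matplotlib 3.10.9 were used for summaries and figures.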

Additional observations from a re-analysis of the deposited data

How the results depend on the processing

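The fall of ugt-44 in km25 genotypes kept its direction under every alternative run, and its call in pmk-1(km25), daf-16(mgDf50);pmk-1(km25) and daf-16(m26);pmk-1(km25) against wild type and in pmk-1(miy7) against pmk-1(km25). The number of called members changed as follows. With a replicate block it was 17 in daf-16(mgDf50), 10 in daf-16(mgDf50);pmk-1(km25), 20 in daf-16(mgDf50);pmk-1(miy7), 10 in daf-16(m26) and 4 in daf-16(m26);pmk-1(km25) against wild type, beside 34.7, 30.3, 52.2, 23.2 and 3.22% of all genes, and 3 in pmk-1(miy7) against pmk-1(km25), beside 2.09%. The block changed no other count of ugt genes. With 2 libraries in a genotype, no single pair of genotypes could show that the numbers pair. Between pmk-1(miy7) and wild type the correlations were 0.0174, 0.711 and 0.766. Same-numbered libraries correlated at 0.344 to 0.759 in every pair of daf-16 genotypes, and at 0.27 to 0.786 between pmk-1(km25) and these genotypes. Between pmk-1(miy7) and these genotypes the correlations were -0.318 to -0.157 for replicate 1 and 0.149 to 0.556 for replicate 2. Whether the numbers mark shared preparations was not tested. With the msp level in the fit the number of called members was 7 in daf-16(mgDf50) and 2 in daf-16(m26);pmk-1(km25) against wild type, beside 9.46 and 2.1% of all genes. For daf-16(mgDf50);pmk-1(km25) against daf-16(mgDf50) it was 2, beside 3.29%. With the intestine marker level, an alternative added after seeing the data, it was 4 in daf-16(mgDf50);pmk-1(km25) and 4 in daf-16(m26);pmk-1(km25) against wild type, and 5 in pmk-1(miy7) against pmk-1(km25), beside 3.72, 3.97 and 3.23%. With only the genotypes compared it was 0 for the km25 and miy7 double mutants against daf-16(mgDf50), beside 0.0701 and 0.0156%, and 2 for daf-16(m26);pmk-1(km25) against daf-16(m26), beside 1.57%. Without the limit on low genes it was 2 in pmk-1(miy7) against pmk-1(km25), beside 0.661%. With a pseudocount of 0.1 TPM as well, also added after seeing the data, it was 2 there, beside 0.701%, and 2 in each of the 3 km25 genotypes against wild type, beside 0.403 to 0.648%. The cause of these changes was not tested.

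Leaving out each library in turn gave 0 to 3 called members in daf-16(mgDf50), where the 3 (ugt-26, ugt-31 and ugt-6) appeared without replicate 2 (1.69% of all genes), 0 to 1 in daf-16(mgDf50);pmk-1(miy7) against wild type, where the 1 appeared without wild type replicate 3 (0.343%), 1 to 2 in daf-16(mgDf50);pmk-1(km25) against daf-16(mgDf50), where the 2 appeared without replicate 2 of daf-16(mgDf50) (0.732%), and 0 in all 4 cases in daf-16(mgDf50);pmk-1(miy7) against daf-16(mgDf50) (0.0779 to 0.132%). The difference of ugt-15 between pmk-1(miy7) and wild type ran from -0.97 to 0.0199, so its sign turned without replicate 3 of pmk-1(miy7). Where 1 library of a genotype remained, it was assumed to vary like the other groups. Differences of low members are limited by the unknown depth.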

Other observations

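Among the 19 members below 1 TPM, ugt-42 had its highest values in km25 libraries. It was at 0.367, 0.0368 and 0.284 TPM in pmk-1(km25) and 0.0678, 0.0818 and 0.0447 TPM in pmk-1(miy7), against 0.0165, 0.0302 and 0.0514 TPM in wild type. It was at 0.260 and 0.164 TPM in daf-16(mgDf50);pmk-1(km25) and 0.325 and 0.227 TPM in daf-16(m26);pmk-1(km25), against 0.182 and 0.0180 TPM in daf-16(mgDf50) and 0.207 and 0.0843 TPM in daf-16(m26). It passed in no comparison, and replicate 2 of pmk-1(km25) lay within the wild-type range.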
